A study of Mus musculus with 22 samples.

Results

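The genes described here are 10 that mark T cells and their naive, recirculating state: Cd3d, Cd3e, Cd3g, Lck, Cd8a, Cd8b1, Tcf7, Lef1, Ccr7 and Il7r. They were taken by symbol from both deposited expression tables, which list them in upper case (CD3D, CD3E, CD3G, LCK, CD8A, CD8B1, TCF7, LEF1, CCR7 and IL7R), and all 10 were found among the 24353 genes of each. The tables held 22 bulk RNA sequencing libraries from tumours of EMT6, a mammary carcinoma line of mouse origin, after 200000 cells had been placed in both inguinal mammary fat pads of wild-type BALB/c mice aged 5 to 6 weeks. Treatment began once tumours could be felt, usually 5 to 7 days after injection, and dissociated tumours were split by CD45, a surface protein of leukocytes, into CD45-positive and CD45-negative cells. The 5 groups were JQ1, a blocker of BET bromodomain proteins, at 50 mg/kg by daily gavage; JQ1 with anti-PD-L1, an antibody that blocks a ligand of PD-1, an inhibitory receptor on T cells; JQ1 with paclitaxel, a microtubule-stabilising drug; all 3 drugs (the 3-drug group); and vehicle. Paclitaxel and anti-PD-L1 were each injected at 10 mg/kg into the peritoneum on 2 days of each week, and no group received either without JQ1. The CD45-positive fraction held 2 libraries of each group. The CD45-negative fraction held 2 JQ1, 2 JQ1 with anti-PD-L1, 3 JQ1 with paclitaxel, 3 3-drug and 2 vehicle libraries. The JQ1, JQ1 with anti-PD-L1 and vehicle groups each carried a single mouse code, with a right and a left tumour, so the p-values given here reflect the spread among tumours, which in these groups may stem from 1 animal.

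T cells recognise antigen through a receptor that signals by way of the CD3 chains, and the kinase Lck phosphorylates those chains when the receptor is engaged. CD8 chains form the coreceptor of cytotoxic T cells. Naive and memory T cells keep the transcription factors TCF1 (gene Tcf7) and LEF1, the homing receptor CCR7, which leads cells to lymph nodes, and the receptor chain for the survival cytokine interleukin 7 (Il7r), and lower them when they become effector cells. The naive-state genes are not restricted to T cells: Ccr7 is also made by mature dendritic cells and B cells, Il7r by innate lymphoid cells and B cell precursors, and Tcf7 and Lef1 by many cells that use Wnt signalling.

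The 3 CD3 genes lie together on mouse chromosome 9. The 250 bases before their RefSeq start sites are shown here, read on each gene's own strand in build GRCm38.p6, a newer build than that of the expression tables. The Cd3d window is chr9:44981536-44981785 (plus strand), the Cd3g window chr9:44980432-44980681 (minus strand) and the Cd3e window chr9:45009612-45009861 (minus strand). Capitals mark matches, on either strand, to the TCF/LEF letters CTTTGA or CTTTGT and the ETS letters AGGAAG.
Cd3d: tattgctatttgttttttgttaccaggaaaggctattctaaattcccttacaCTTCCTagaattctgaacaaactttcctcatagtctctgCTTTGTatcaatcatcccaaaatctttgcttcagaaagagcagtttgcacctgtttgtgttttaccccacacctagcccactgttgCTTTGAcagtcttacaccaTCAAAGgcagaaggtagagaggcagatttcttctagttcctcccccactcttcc
Cd3g: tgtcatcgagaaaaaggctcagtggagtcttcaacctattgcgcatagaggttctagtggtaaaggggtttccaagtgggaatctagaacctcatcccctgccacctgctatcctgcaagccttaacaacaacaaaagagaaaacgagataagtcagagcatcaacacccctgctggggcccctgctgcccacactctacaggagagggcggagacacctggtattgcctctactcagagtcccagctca
Cd3e: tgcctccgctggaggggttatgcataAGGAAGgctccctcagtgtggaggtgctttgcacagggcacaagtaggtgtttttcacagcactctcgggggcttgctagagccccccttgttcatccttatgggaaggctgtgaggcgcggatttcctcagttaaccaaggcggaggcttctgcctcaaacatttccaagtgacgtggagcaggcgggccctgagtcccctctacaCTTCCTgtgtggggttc
The Cd3d and Cd3g starts face away from each other at a distance of 1355 bases, and the Cd3e start lies 29180 bases from that of Cd3g. The Cd3d window held 3 TCF/LEF matches and 1 ETS match, the Cd3e window held 2 ETS matches, and the Cd3g window held neither. Among the 32851 promoter windows of this length in the RefSeq table, 27.6% held a TCF/LEF match and 29.5% an ETS match, so such matches are common. The RUNX letters TGTGGT or TGCGGT, present in 18.6% of windows, were found in none of the CD3 windows. RefSeq windows were matched for 8 of the 10 genes, Ccr7 and Cd8b1 being the others. A match describes letters and shows no binding.

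Values are FPKM, fragments scaled to transcript length and library total, which allow levels of different genes to be compared per length but give no read totals. Relative depths recovered from the steps between low values ranged from 0.639 to 1.74 in the CD45-positive and from 0.54 to 1.77 in the CD45-negative libraries. For 7 of the genes the same steps gave the number of reads behind each value, and these are quoted where they were low. Ptprc, which encodes CD45, had 38.6 to 73.6 FPKM in CD45-positive and 1.25 to 8.65 FPKM in CD45-negative samples. A pair of libraries stood apart from their group. CD45-positive JQ1 replicate 1 was the highest of its fraction for 9 of the 10 genes (all but Il7r), and CD45-negative 3-drug replicate 2 was the highest of its fraction for 8 (all but Tcf7 and Cd8a), so the main results that rest on them are given with and without them.

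The CD3 chains were highest in the JQ1 group of the CD45-positive fraction. Cd3e, which carries signalling motifs and is needed for assembly of the whole receptor, reached 35.4 and 10.6 FPKM with JQ1, 2.68 and 2.28 with JQ1 and anti-PD-L1, 3.67 and 2.13 with JQ1 and paclitaxel, 5.40 and 3.48 in the 3-drug group, and 3.70 and 2.23 with vehicle. Both JQ1 libraries lay above all 8 others, and the ranges of the 3 combination groups each overlapped that of vehicle. Cd3g measured 18.3 and 10.1 FPKM with JQ1, 1.91 and 2.52 with JQ1 and anti-PD-L1, 3.74 and 1.64 with JQ1 and paclitaxel, 9.56 and 5.00 in the 3-drug group, and 5.69 and 2.30 with vehicle. The JQ1 pair was again on top, followed by 3-drug replicate 1. Cd3d measured 11.97 and 2.12 FPKM with JQ1, 1.51 and 0.829 with JQ1 and anti-PD-L1, 0.999 and 0.441 with JQ1 and paclitaxel, 3.09 and 0.697 in the 3-drug group, and 0.861 and 0.728 with vehicle. Here JQ1 replicate 2 fell below 3-drug replicate 1, and the vehicle values rested on 16 and 15 reads.

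In bulk RNA, a smaller number of T cells and less of a transcript in each T cell cannot be told apart, and this holds for every level given here. Differences are given on the log2(FPKM + 1) scale from limma with their standard errors, which understates the change of low genes, and a gene is called where its Benjamini-Hochberg adjusted p over all tested genes was under 0.05. For JQ1 against vehicle the difference was 2.40 ± 0.49 for Cd3e (adjusted p = 0.0595), 1.64 ± 0.46 for Cd3g (adjusted p = 0.114) and 1.83 ± 0.62 for Cd3d (adjusted p = 0.158), and none was called. Without JQ1 replicate 1 the values were 1.58, 1.24 and 0.80, in the same order.

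**Figure D1:**
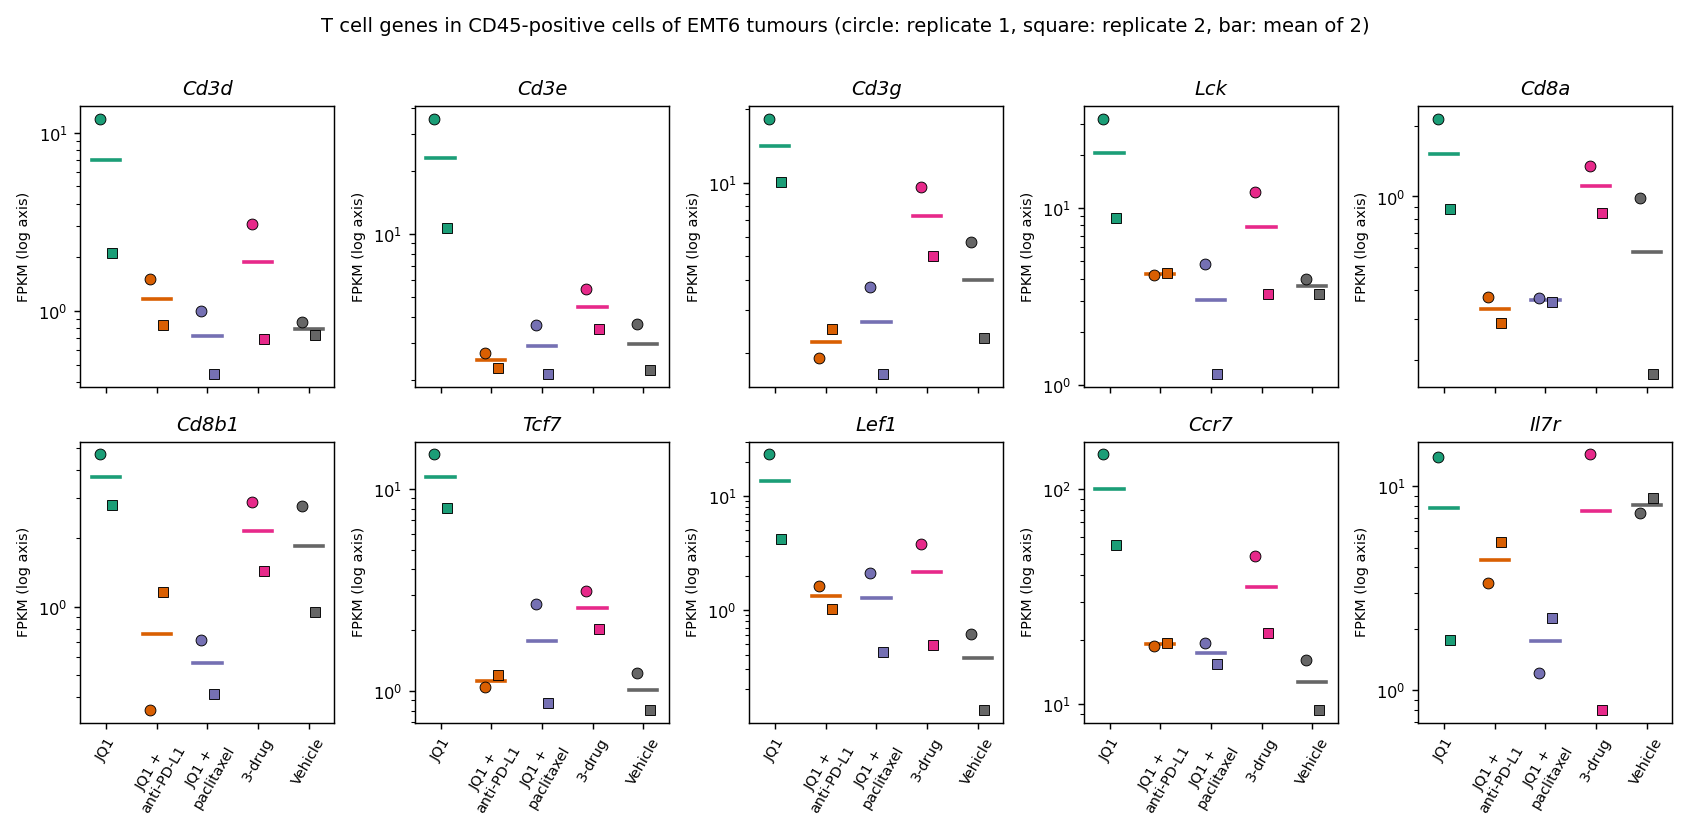
Level of each of the 10 genes in the 10 CD45-positive libraries (FPKM, log axis), with circles for replicate 1, squares for replicate 2 and bars for the mean of 2. The 2 JQ1 libraries sit on top for Cd3e, Cd3g, Tcf7, Lef1 and Ccr7, at 35.4 and 10.6 FPKM for Cd3e. The share of all tested genes with both JQ1 libraries on top was not counted. Il7r reaches 14.3 in 3-drug replicate 1 and 0.803 in 3-drug replicate 2.

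Lck had 32.0 and 8.76 FPKM with JQ1, 4.18 and 4.29 with JQ1 and anti-PD-L1, 4.86 and 1.15 with JQ1 and paclitaxel, 12.3 and 3.28 in the 3-drug group, and 3.95 and 3.28 with vehicle. It followed the CD3 chains, with JQ1 replicate 1 highest and 3-drug replicate 1 next, and the difference of 1.96 ± 0.69 between JQ1 and vehicle was not called (adjusted p = 0.170). Without JQ1 replicate 1 the Lck difference was 1.08, and without JQ1 replicate 2 it was 2.84. The CD8 chains were low and differed widely between the vehicle libraries. Cd8a, the alpha chain, measured 2.15 and 0.885 FPKM with JQ1, 0.373 and 0.287 with JQ1 and anti-PD-L1, 0.368 and 0.354 with JQ1 and paclitaxel, 1.35 and 0.852 in the 3-drug group, and 0.983 and 0.174 with vehicle. The vehicle pair, behind which stood 46 and 9 reads, spanned the levels of both JQ1 and anti-PD-L1 and JQ1 and paclitaxel. Cd8b1, the beta chain that marks conventional cytotoxic T cells, measured 4.67 and 2.79 FPKM with JQ1, 0.351 and 1.16 with JQ1 and anti-PD-L1, 0.716 and 0.412 with JQ1 and paclitaxel, 2.88 and 1.43 in the 3-drug group, and 2.76 and 0.949 with vehicle. JQ1 replicate 2 lay close to vehicle replicate 1, and 3-drug replicate 1 exceeded both. Against vehicle the JQ1 difference was 0.67 ± 0.32 for Cd8a (adjusted p = 0.277) and 0.78 ± 0.40 for Cd8b1 (adjusted p = 0.322). Without JQ1 replicate 1 the Cd8b1 difference was 0.48, and Cd8a did not pass the filter.

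Tcf7 was higher with JQ1 than in any other CD45-positive group. It measured 14.8 and 8.05 FPKM with JQ1, 1.05 and 1.21 with JQ1 and anti-PD-L1, 2.69 and 0.871 with JQ1 and paclitaxel, 3.13 and 2.03 in the 3-drug group, and 1.22 and 0.808 with vehicle. Both JQ1 libraries exceeded all 8 others, and both 3-drug libraries exceeded both vehicle libraries. Tcf7 rose with JQ1 by 2.58 ± 0.38 over vehicle (adjusted p = 0.0245). Lef1, its relative that binds the same DNA letters, measured 23.2 and 4.17 FPKM with JQ1, 1.62 and 1.02 with JQ1 and anti-PD-L1, 2.10 and 0.423 with JQ1 and paclitaxel, 3.80 and 0.494 in the 3-drug group, and 0.618 and 0.132 with vehicle. The vehicle values came from 21 and 5 reads and were exceeded by both JQ1 and both JQ1 with anti-PD-L1 libraries. The Lef1 difference of 3.05 ± 0.75 between JQ1 and vehicle was not called (adjusted p = 0.0868). It was 1.93 without JQ1 replicate 1, and 4.16 without JQ1 replicate 2, where it was called (adjusted p = 0.0354).

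Ccr7 was the most abundant of the 10 genes. It measured 144.6 and 54.7 FPKM with JQ1, 18.8 and 19.2 with JQ1 and anti-PD-L1, 19.3 and 15.4 with JQ1 and paclitaxel, 49.0 and 21.5 in the 3-drug group, and 16.015 and 9.43 with vehicle. Both JQ1 libraries exceeded all others, the 3-drug libraries came next, and vehicle replicate 2 was lowest. Ccr7 rose with JQ1 by 2.76 ± 0.49 over vehicle (adjusted p = 0.0401). Il7r did not share this order. It measured 13.9 and 1.76 FPKM with JQ1, 3.37 and 5.31 with JQ1 and anti-PD-L1, 1.22 and 2.26 with JQ1 and paclitaxel, 14.3 and 0.803 in the 3-drug group, and 7.36 and 8.79 with vehicle. Within both the JQ1 and the 3-drug group replicate 1 was far above replicate 2, and the 4 libraries of JQ1 with anti-PD-L1 and JQ1 with paclitaxel were all below both vehicle libraries. The Il7r difference between JQ1 and vehicle was −0.50 ± 0.97 (adjusted p = 0.814), and between JQ1 with paclitaxel and vehicle −1.75 ± 0.97 (adjusted p = 0.339).

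For JQ1 against vehicle in CD45-positive cells, 2 of the 10 genes were called, both higher, where 1.04% of the 10340 tested genes were called in either direction and 0.609% were higher. All 10 passed the filter of 1 FPKM in at least 2 libraries, Cd8a only through JQ1 replicate 1 and 3-drug replicate 1. For 8 of the 10 (all but Cd8a and Il7r) both JQ1 libraries lay above both vehicle libraries, which was so for 22.4% of tested genes. The median difference over the 10 was 1.89, against −0.004 over all tested genes, and without JQ1 replicate 1 it was 1.24 over the 9 genes that then passed the filter. The calls depended on single libraries. Without JQ1 replicate 1 the Tcf7 difference was 2.17 (adjusted p = 0.102) and that of Ccr7 2.06 (adjusted p = 0.136), and neither was called. Neither was called without vehicle replicate 1 (Tcf7 adjusted p = 0.229, Ccr7 0.237), vehicle replicate 2 (0.111, 0.132), or either JQ1 with anti-PD-L1 library (0.0573 and 0.0576 for Tcf7, 0.0819 and 0.0826 for Ccr7). Without either JQ1 with paclitaxel library Tcf7 was called and Ccr7 was not (adjusted p = 0.0624 and 0.0628). Without JQ1 replicate 2, 5 genes were called, with Cd3d, Cd3e and Lef1 added. With 1 value per mouse code neither gene was called (adjusted p = 0.827 for both).

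**Figure D2:**
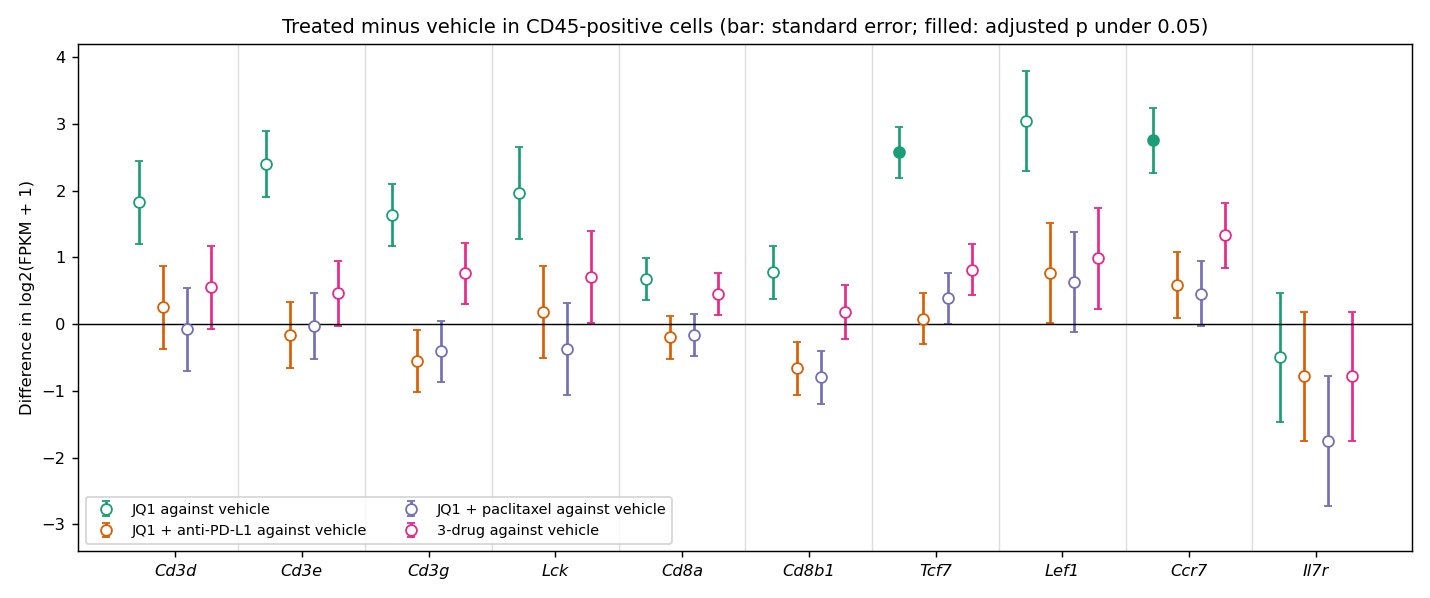
Difference in log2(FPKM + 1) between each treated group and vehicle in CD45-positive cells, with standard errors, for the 10 genes. Filled points passed the adjusted p threshold of 0.05, which held for Tcf7 (2.58) and Ccr7 (2.76) with JQ1 alone. For each gene the JQ1 point is above the other 3, though for Il7r it lies below 0, at −0.50. How many of all tested genes have this order was not counted, and the points of a gene share the vehicle libraries.

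Other genes of the T cell receptor pathway were highest in JQ1 replicate 1. Their summed level was 293.8 and 80.4 FPKM with JQ1, 49.2 and 66.4 with JQ1 and anti-PD-L1, 82.2 and 64.4 with JQ1 and paclitaxel, 129.2 and 53.1 in the 3-drug group, and 69.8 and 74.0 with vehicle. JQ1 replicate 2 lay close to the vehicle libraries and below 3-drug replicate 1. Of 26 such genes beside the 10, 21 were tested, 2 were higher and none lower in JQ1 than in vehicle, among them Thy1, a surface glycoprotein of mouse T cells, by 1.25 ± 0.22 (adjusted p = 0.0396). The median difference over the 21 was 1.63, and without JQ1 replicate 1 it was 0.73 over 19. Cd4, the coreceptor of helper T cells, measured 6.79 and 1.63 FPKM with JQ1 against 0.279 and 0.388 with vehicle, a difference of 1.76 ± 0.53 that was not called (adjusted p = 0.126). Of 18 further genes of naive and memory cells, 16 were tested, 3 were higher and none lower: Ets1 (3.04 ± 0.39, adjusted p = 0.0175), Foxo1 (1.71 ± 0.27, adjusted p = 0.0307), a transcription factor upstream of Il7r and Ccr7, and Il6st (1.40 ± 0.26, adjusted p = 0.042), a chain of the interleukin 6 receptor. Their median was 0.79. Ets1, Foxo1 and Il6st are also made by endothelial cells. With vehicle, the summed level of the 18 genes was 248.2 and 179.5 FPKM in CD45-positive and 431.2 and 447.2 FPKM in CD45-negative libraries. The list therefore does not measure naive and memory T cells alone. Of 19 effector and exhaustion genes, 15 were tested and 1 was higher, Prf1, the pore-forming protein of cytotoxic cells (1.83 ± 0.23, adjusted p = 0.0175). Their median was 0.67. Pdcd1, the gene of PD-1, differed by 0.15 ± 0.51 (adjusted p = 0.905) and the granzyme gene Gzmb by 1.13 ± 0.82 (adjusted p = 0.48).

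Markers of other cells moved with the JQ1 group in the same fraction. The summed level of 9 B cell genes was 175.5 and 156.8 FPKM with JQ1, 23.6 and 18.1 with JQ1 and anti-PD-L1, 36.2 and 1.21 with JQ1 and paclitaxel, 33.5 and 54.3 in the 3-drug group, and 9.13 and 11.05 with vehicle. Of these 9, 7 were tested and 2 were higher with JQ1, Ebf1 (1.69 ± 0.23, adjusted p = 0.0191) and Fcer2a (2.22 ± 0.34, adjusted p = 0.0258). The sum of 6 endothelial genes was 21.5 and 19.3 FPKM with JQ1 against 3.46 and 6.87 with vehicle, and 2 of the 6 were higher, Pecam1 (2.06 ± 0.26, adjusted p = 0.0175) and Emcn (1.36 ± 0.23, adjusted p = 0.0357). With JQ1 and paclitaxel that sum was larger still, at 39.5 and 56.0 FPKM. The sum of 8 innate lymphoid cell genes, another source of Il7r, was 62.7 and 24.3 FPKM with JQ1, 150.0 and 142.9 with JQ1 and anti-PD-L1, 32.1 and 39.5 with JQ1 and paclitaxel, 58.6 and 12.8 in the 3-drug group, and 37.7 and 27.1 with vehicle. In the CD45-negative vehicle libraries it was 210.5 and 363.2 FPKM, so it does not measure innate lymphoid cells alone. The sum of 10 mature dendritic cell genes, another source of Ccr7, was 106.4 and 80.7 FPKM with JQ1 against 82.3 and 69.5 with vehicle. In CD45-negative libraries that sum was 130.8 and 97.85 FPKM with JQ1 and 93.8 and 86.5 FPKM with vehicle. It therefore does not measure dendritic cells alone, and their change with JQ1 cannot be read from it. The sum of 8 natural killer cell genes was 11.6 and 11.75 FPKM with JQ1 against 3.46 and 4.19 with vehicle. limma called none of the tested genes of regulatory T cells (6), natural killer cells (3), innate lymphoid cells (6), mature dendritic cells (9) or macrophages (10), nor the 1 tested gene of gamma-delta T cells, between JQ1 and vehicle. Without JQ1 replicate 1 limma called none of the genes of the receptor pathway, naive and memory, effector and exhaustion, B cell and endothelial lists, and 2 of all tested genes. The medians were then 0.60 for the naive and memory list, 0.02 for the effector and exhaustion list, 2.42 for the B cell list (2.64 with all libraries) and 0.81 for the endothelial list (0.87 with all libraries). The part of these other cells in the Tcf7, Lef1, Ccr7 and Il7r levels was not tested.

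In the 3 combination groups limma called none of the 10 genes. In the 3-drug group 0.135% of tested genes were called (14 genes). There Ccr7 differed from vehicle by 1.33 ± 0.49 (adjusted p = 0.495) and Tcf7 by 0.82 ± 0.38 (adjusted p = 0.586), and these were the 2 genes of the 10 with both 3-drug libraries above both vehicle libraries (18.1% of tested genes). At an unadjusted p under 0.05 limma counted 903 tested genes and, of the 10, Ccr7 alone. The median difference over the 10 was 0.63, against 0.01 over all. With JQ1 and anti-PD-L1, 0.029% of tested genes were called (3 genes, with 735 at an unadjusted p under 0.05 and none of the 10 among them). Ccr7, Lck and Lef1 had both libraries above vehicle, where 14.8% of tested genes did, and Il7r had both below, where 27.1% did. With JQ1 and paclitaxel, 4.84% of tested genes were called (500 genes, with 2205 at an unadjusted p under 0.05 and none of the 10 among them). Cd8b1, at −0.80 ± 0.40 (adjusted p = 0.294), and Il7r were the genes with both libraries below vehicle, where 33.5% of tested genes were. The medians over the 10 genes were −0.04 and −0.12 in these 2 comparisons, against −0.06 and −0.09 over all tested genes. All 4 comparisons share the vehicle libraries.

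The 4 JQ1-containing groups also allow the added drugs to be examined. Set against the mean of JQ1 and JQ1 with paclitaxel, the mean of the 2 groups with anti-PD-L1 differed by −1.032 ± 0.27 for Tcf7 (adjusted p = 0.105) and −1.04 ± 0.35 for Cd3e (adjusted p = 0.169), and no gene of the 10 was called (0.832% of tested genes were, with 1936 at an unadjusted p under 0.05, Tcf7 and Cd3e among them). Set against the mean of JQ1 and JQ1 with anti-PD-L1, the mean of the 2 groups with paclitaxel differed by −0.90 ± 0.35 for Cd3e (adjusted p = 0.464) and −0.73 ± 0.27 for Tcf7 (adjusted p = 0.451). Again none was called (0.0387% of tested genes were, with 977 at an unadjusted p under 0.05, Tcf7 and Cd3e among them). The interaction asks whether the step from JQ1 with paclitaxel to the 3-drug group differs from the step from JQ1 to JQ1 with anti-PD-L1. It was positive for all 10 genes, from 1.25 ± 1.37 for Il7r to 3.36 ± 0.65 for Cd3g, with a median of 2.75 against 0.16 over all tested genes. For 9 of the 10 the unadjusted p was under 0.05, which held for 1070 of the 10340 genes, but limma called none of the 10 and 0% of all genes, and the lowest adjusted p among the 10 was 0.205, for Tcf7. Cd8a, among those 9, passed the filter only through JQ1 replicate 1 (2.15 FPKM) and 3-drug replicate 1 (1.35 FPKM). Both groups enter this contrast with a positive sign, so the inclusion of Cd8a is tied to the direction tested. Without JQ1 replicate 1 the median was 2.13 over the 9 genes that then passed the filter. Set over all 8 treated libraries together, none of the 10 was called against vehicle (0.822% of tested genes were, with 1656 at an unadjusted p under 0.05, Ccr7, Tcf7 and Lef1 among them). The values closest to the threshold were those of Ccr7, 1.28 ± 0.39 (adjusted p = 0.162), and Tcf7, 0.97 ± 0.30 (adjusted p = 0.173).

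The naive-state genes were next set against the CD3 chains of the same library, as the FPKM ratio to the mean of Cd3d, Cd3e and Cd3g. For Tcf7 this ratio was 0.678 and 1.06 with JQ1, 0.515 and 0.643 with JQ1 and anti-PD-L1, 0.959 and 0.621 with JQ1 and paclitaxel, 0.520 and 0.663 in the 3-drug group, and 0.358 and 0.462 with vehicle. All 8 treated libraries were above both vehicle libraries. For Ccr7 it was 6.61 and 7.19 with JQ1, 9.22 and 10.25 with JQ1 and anti-PD-L1, 6.90 and 11 with JQ1 and paclitaxel, 8.14 and 7.02 in the 3-drug group, and 4.69 and 5.39 with vehicle, again with no overlap. Of all tested genes, 0.164% had such a ratio above both vehicle libraries in all 8 treated ones. The CD3 mean itself was 21.9 and 7.61 FPKM with JQ1 and 3.42 and 1.75 FPKM with vehicle, so a gene at an even level across libraries has a lower ratio with JQ1, and that share does not measure how rare the pattern is. For Lef1 the ratio was 1.06 and 0.548 with JQ1, 0.797 and 0.544 with JQ1 and anti-PD-L1, 0.748 and 0.302 with JQ1 and paclitaxel, 0.632 and 0.162 in the 3-drug group, and 0.181 and 0.0756 with vehicle. Among treated libraries, 3-drug replicate 2 alone lay within the vehicle range. Il7r went the other way in most libraries, with 0.636 and 0.231 with JQ1, 1.66 and 2.83 with JQ1 and anti-PD-L1, 0.434 and 1.61 with JQ1 and paclitaxel, 2.38 and 0.262 in the 3-drug group, and 2.16 and 5.02 with vehicle. In 6 of the 8 treated libraries it was below both vehicle libraries. The ratios were given no test.

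**Figure D3:**
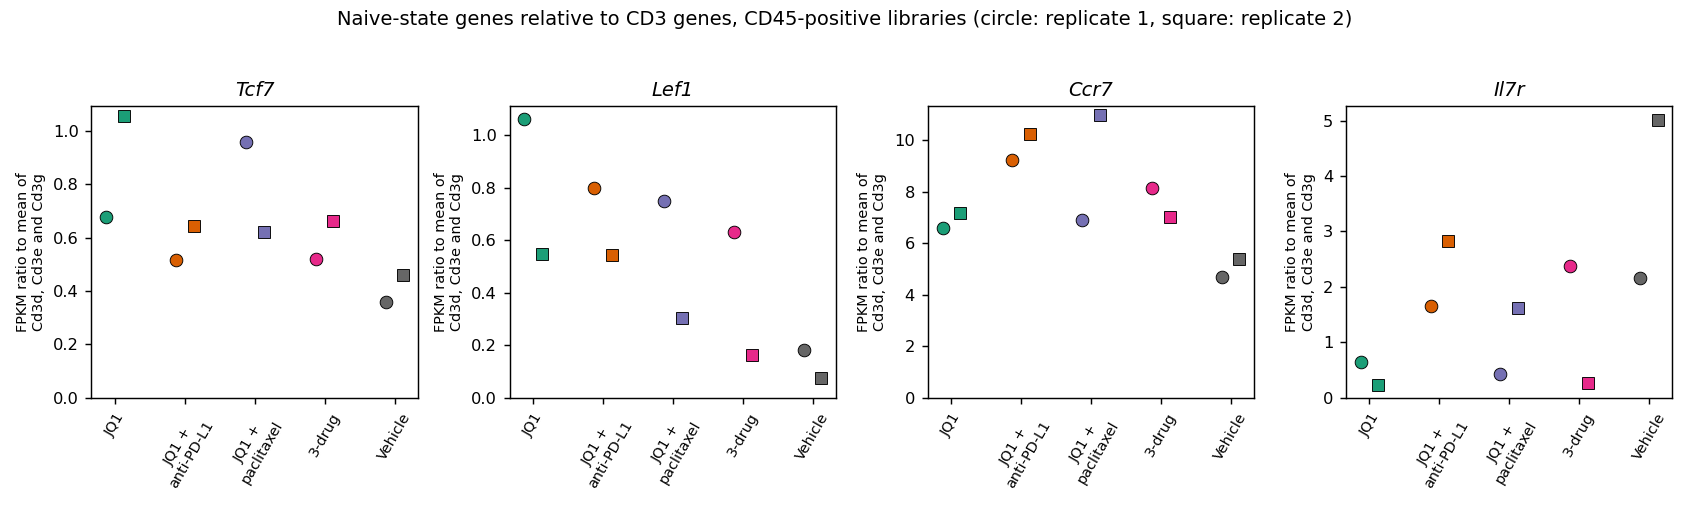
FPKM ratio of Tcf7, Lef1, Ccr7 and Il7r to the mean of the 3 CD3 genes in each CD45-positive library (linear axes from 0), circles for replicate 1 and squares for replicate 2. For Tcf7 and Ccr7 all treated points are above the vehicle points, which lie at 0.358 and 0.462 for Tcf7 and at 4.69 and 5.39 for Ccr7, while the vehicle points of Il7r lie at 2.16 and 5.02.

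Across the 10 CD45-positive libraries the CD3 chains varied together, with Pearson's r of log2(FPKM + 1) between 0.825 and 0.931 for their 3 pairs, and between 0.708 and 0.898 over the 9 libraries without JQ1 replicate 1. Tcf7 and Cd3e had r = 0.967 (0.960 without that library), Tcf7 and Lef1 0.924 (0.825), and Cd8a and Cd8b1 0.893 (0.834). Il7r stood outside, with r of 0.185 to 0.558 with the other 9 genes, and −0.266 to 0.359 without that library. All values of a library share its cell mixture, so these are descriptions. Among 6819 genes with a mean log2(FPKM + 1) of at least 2, the 8 with the pattern closest to the mean of the CD3 chains included Gimap3 (r = 0.964 over 10 libraries, 0.901 without JQ1 replicate 1), Smc6 (0.961, 0.882) and Satb1 (0.952, 0.873), a chromatin organiser of thymocytes, with Dusp10, Gramd3, Fam107b and Sept1 at 0.939 to 0.951. The closest to Tcf7 were Gimap3 (0.971, 0.939), Dgka (0.958, 0.910) and Smchd1 (0.957, 0.904), with Dusp10, Satb1, Epb41 and Sept1 at 0.949 to 0.956.

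In the CD45-negative fraction most of the 10 genes were near the limit of detection. Outside 3-drug replicate 2, the median of 11 libraries was 0 FPKM for Cd3d, Cd8a and Cd8b1, 0.0457 for Lef1, 0.201 for Cd3g, 0.455 for Cd3e, 0.252 for Il7r, 1.02 for Ccr7 and 1.32 for Lck. Cd3d, Cd8a and Cd8b1 were each at 0 in 6 of 12 libraries, where a count of 0 allows up to 0.155 to 0.395 FPKM for Cd3d, 0.0479 to 0.131 for Cd8a and 0.112 to 0.367 for Cd8b1, taking 3 reads as the limit and covering counting error only. The 3-drug replicate 2 library held more: 1.56 FPKM of Cd3d (22 reads), 3.46 of Cd3e, 1.64 of Cd3g, 3.34 of Lef1 (86 reads), 14.2 of Ccr7 and 5.48 of Lck, with a B cell sum of 19.1 FPKM against 0.98 to 7.16 in the other 11. Leukocytes of that tumour, sequenced as CD45-positive 3-drug replicate 2, had 0.697 FPKM of Cd3d and 0.494 of Lef1, less than its CD45-negative cells. Ptprc had 8.65 FPKM in the CD45-negative and 46.6 FPKM in the CD45-positive library of this tumour. Whether both libraries are of the labelled tumour and fraction was not tested, and the values of this tumour carry that doubt.

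Tcf7 was the exception in the CD45-negative cells. It measured 2.10 and 2.39 FPKM with JQ1, 3.86 and 3.87 with JQ1 and anti-PD-L1, 1.63, 1.032 and 1.37 with JQ1 and paclitaxel, 3.43, 2.96 and 2.42 in the 3-drug group, and 7.97 and 7.92 with vehicle. All 10 treated libraries lay below both vehicle libraries, which was so for 8.33% of the 10780 genes tested. The ranges of the 5 groups did not overlap, but JQ1 and the 3-drug group nearly met, at 2.39 and 2.42 FPKM. The share of tested genes with 5 separate ranges was not counted. Tcf7 fell with JQ1 by 1.46 on the log2 scale (−1.46 ± 0.19, adjusted p = 0.00103), with JQ1 and paclitaxel (−1.94 ± 0.18, adjusted p = 6.74e-05) and in the 3-drug group (−1.19 ± 0.18, adjusted p = 0.0186), while with JQ1 and anti-PD-L1 the difference of −0.88 ± 0.19 was not called (adjusted p = 0.0645). Of tested genes, 14.8% were called with JQ1 (9.68% lower), 17.6% with JQ1 and paclitaxel (12.3% lower), 1.63% in the 3-drug group (1.05% lower) and 0.25% with JQ1 and anti-PD-L1 (1554 at an unadjusted p under 0.05, Tcf7 among them). Of the 10 genes, 5 passed the filter (Tcf7, Lck, Cd3e, Ccr7 and Il7r), of which Tcf7 alone was called. Il7r passed only through 3-drug replicates 1 and 2, and Cd3e only through JQ1 with anti-PD-L1 replicate 1 and 3-drug replicate 2. The 3-drug call was lost without 3-drug replicate 2 (−1.20, adjusted p = 0.071), without vehicle replicate 1 (−1.19, adjusted p = 0.122) and without vehicle replicate 2 (−1.20, adjusted p = 0.0665). With 1 value per mouse code the JQ1 and 3-drug calls were lost (adjusted p = 0.0985 and 0.37), and that of JQ1 with paclitaxel held (adjusted p = 0.011). The summed level of 12 pan-leukocyte genes in the vehicle libraries of this fraction lay within the range of the treated ones: it was 232.1 and 158.4 FPKM with JQ1, 411.7 and 280.0 with JQ1 and anti-PD-L1, 137.5 to 358.2 with JQ1 and paclitaxel, 223.0 to 374.0 in the 3-drug group, and 139.8 and 209.4 with vehicle. Other marker lists also differed from vehicle in this fraction, and in the 3-drug group they went different ways. There the sums of the erythroid and neutrophil lists were lower than with vehicle, as Tcf7 was. The sum of the innate lymphoid list was higher there, and that of the tumour epithelial list overlapped vehicle. Of 5 tested tumour epithelial genes, 3 were lower with JQ1 and 2 with JQ1 and paclitaxel, and none was called in the 3-drug group. Their summed level was 297.6 and 357.2 FPKM with JQ1, 367.5 and 498.0 with JQ1 and anti-PD-L1, 342.6 to 543.9 with JQ1 and paclitaxel, 531.2 to 762.2 in the 3-drug group, and 507.0 and 889.0 with vehicle. Of 4 tested erythroid genes, 3 were lower in each of these 3 groups, and their sum was at most 67.5 FPKM in treated libraries against 332.0 and 109.8 FPKM with vehicle. Among 5 tested neutrophil genes, 2 were lower with JQ1, 4 with JQ1 and paclitaxel and 3 in the 3-drug group. The neutrophil sum was 10.75, 12.99 and 8.18 FPKM in the 3-drug group against 36.11 and 29.64 FPKM with vehicle. It overlapped vehicle with JQ1 (35.97 and 18.01 FPKM) and was higher with JQ1 and anti-PD-L1 (63.82 and 58.02 FPKM). Among 3 tested plasmacytoid dendritic cell genes, 2 were lower with JQ1 and 2 with JQ1 and paclitaxel. Of 2 tested innate lymphoid cell genes, 1 was lower with JQ1, and their list's sum was 31.9 and 60.6 FPKM with JQ1 and 548.0, 466.6 and 480.5 FPKM in the 3-drug group, against 210.5 and 363.2 FPKM with vehicle. That sum was lower in the CD45-positive libraries of the 3-drug group (58.6 and 12.8 FPKM) and of vehicle (37.7 and 27.1 FPKM). It therefore does not measure innate lymphoid cells alone. The part of the cells behind these lists in the Tcf7 levels was not tested. The relatives of Tcf7 that bind the same DNA letters, looked up after its values were seen, were more abundant than Tcf7 in all 10 treated CD45-negative libraries: Tcf7l1 had 9.12 to 20.1 FPKM in treated and 15.3 and 16.7 in vehicle libraries, and Tcf7l2 6.35 to 13.5 in treated and 7.82 and 11.4 in vehicle libraries, with overlapping ranges.

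**Figure D4:**
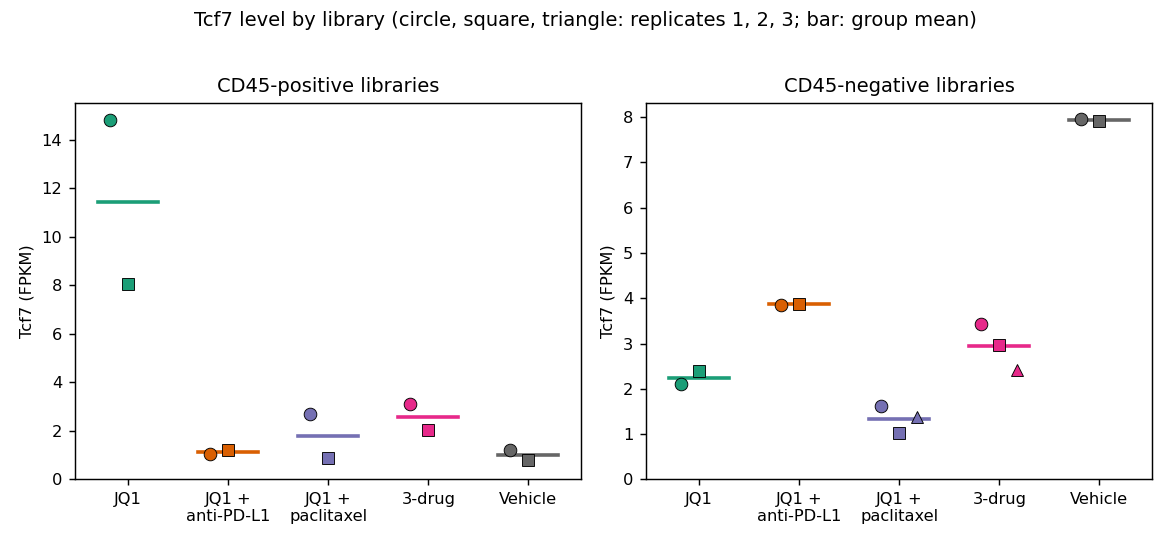
Tcf7 level (FPKM, linear axes from 0) in CD45-positive libraries on the left and CD45-negative libraries on the right, with bars for group means. A different group leads in each fraction: JQ1 is on top at 14.8 and 8.05 FPKM in CD45-positive cells, and vehicle is on top at 7.97 and 7.92 FPKM in CD45-negative cells.

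Of 12 tumours, 10 gave libraries of both fractions (replicate numbers in this paragraph are those of the CD45-positive libraries), so that the level in CD45-negative cells can be given as a share of that in CD45-positive cells. Since each table was normalized on its own, no test was made between fractions. Ptprc had shares of 3.21% to 18.6% (median 6.74%) and the summed 12 pan-leukocyte genes 6.38% to 16.3% (median 9.12%), as a measure of leukocyte RNA in the CD45-negative fraction. Cd3e (median 8.97%), Ccr7 (5.78%), Lef1 (4.85%), Cd3g (4.81%), Il7r (4.74%), Cd8a (2.68%), Cd3d (2.02%) and Cd8b1 (1.84%) had medians below that of the leukocyte sum. Tumour by tumour, Cd3e was nevertheless above the leukocyte share in 6 of 10, with 76.1% in JQ1 with anti-PD-L1 replicate 1 and 99.3% in 3-drug replicate 2. Without the tumour of 3-drug replicate 2 the medians were 1.08% for Cd3d and 0% for Cd8a and Cd8b1, and the highest share of Lef1 was 10.8%, against 675% in that tumour. Tcf7 had 14.2% to 980%, with a median of 151%. Its share was above the leukocyte share in 10 of 10 tumours and above 100% in 7, the exceptions being both JQ1 tumours and JQ1 with paclitaxel replicate 1. Without the tumour of 3-drug replicate 2 the median was 157% for Tcf7. Lck had a median of 26.5%, or 17.7% with that tumour left out, and was above the leukocyte share in 8 of 10 tumours, with 1.65% in JQ1 replicate 1 and 167% in 3-drug replicate 2. In CD45-negative cells Lck measured 0.529 and 1.28 FPKM with JQ1, 2.06 and 1.52 with JQ1 and anti-PD-L1, 0.860, 0 and 0.0557 with JQ1 and paclitaxel, 2.11, 5.48 and 1.32 in the 3-drug group, and 1.40 and 2.15 with vehicle. Its difference of −1.13 ± 0.39 between JQ1 with paclitaxel and vehicle was not called (adjusted p = 0.0614).

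**Figure D5:**
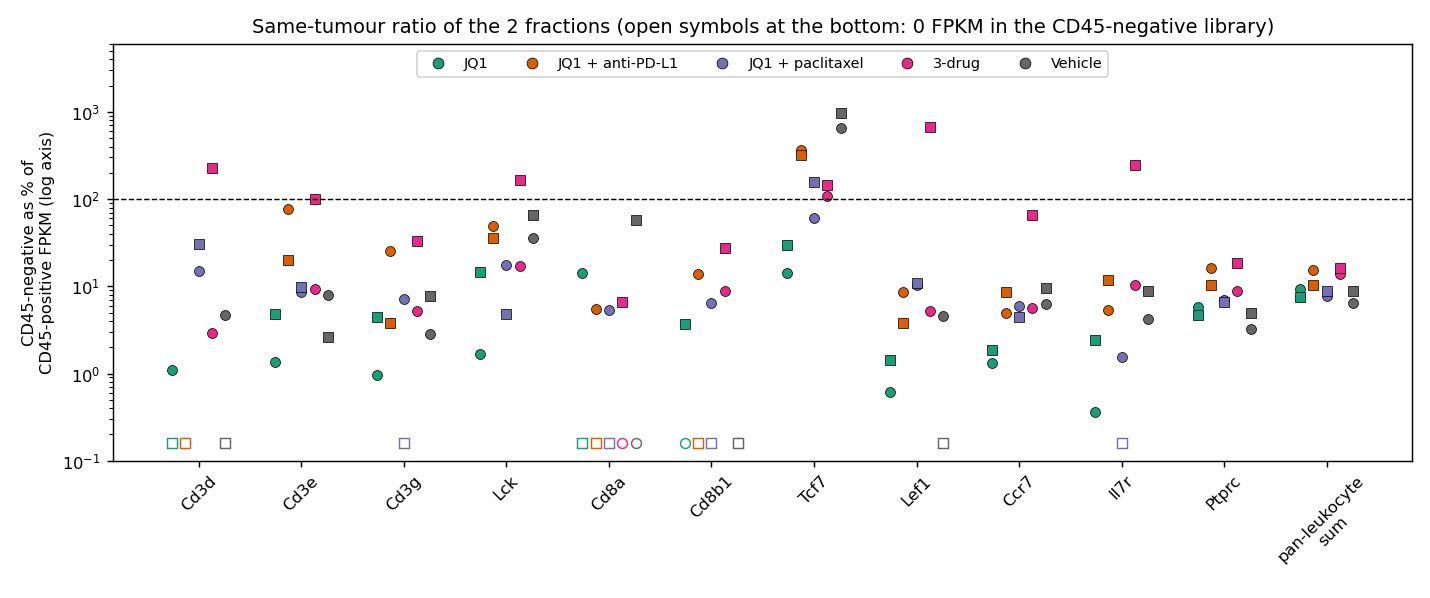
CD45-negative level as a percentage of the CD45-positive level, tumour by tumour (log axis), for the 10 genes, Ptprc and the sum of 12 pan-leukocyte genes, coloured by treatment. Tcf7 lies between 14.2% and 980%, above the pan-leukocyte sum at 6.38% to 16.3% in every tumour, and the high squares for Cd3d, Lef1 and Il7r belong to 3-drug replicate 2.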

How the data were processed

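RNA was sequenced from 10 CD45-positive and 12 CD45-negative samples. The submitters' processing notes name STAR 2.5.1b and the mm9 build, and how gene values were made is not given in the sources used here. Both deposited tables were read as FPKM made by the authors: their names speak of counts, but their values behave as length-scaled ones. Absolute depth is unknown. Relative depth came from steps between low values (231 library pairs, 3 misread, other residuals up to 0.00688 log2, and an error of 2.8e-05 on simulated data). Reads were recovered for a gene where at least 80% of multiples up to 25 lay within 0.1 of a whole number.

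For each fraction, limma 3.58.1 (R 4.3.3) modelled log2(FPKM + 1) in all 5 groups with a trended prior variance, for genes that reached 1 FPKM in 2 or more libraries. Tests were two-sided, adjusted by Benjamini-Hochberg over those genes, threshold 0.05. In simulated data for JQ1 against vehicle, on 10340 CD45-positive and 10780 CD45-negative genes, the test recovered 21.4% and 56.6% of log2 changes of 1, and 76% and 94.2% of changes of 2, with 4.70% and 5.16% of calls false. The simulated libraries were independent, with the spread found within groups. Spread between animals was thus left out, and these shares need not hold for groups with a single mouse code, such as JQ1 and vehicle. Replicate numbers follow accession order. The 10 genes, the gene lists and the alternatives were chosen with earlier results of these data known. All 10 genes are named, of each list the called members with the 3 lowest adjusted p, and the 8 genes most alike in pattern to the CD3 mean and to Tcf7. Fits of the lists without JQ1 replicate 1 and shares without the tumour of 3-drug replicate 2 were added after the data were seen. Some genes that these rules pick are not reported here. Cd4, Pdcd1 and Gzmb were named after their values were seen. In the lists, 4 of 8 gamma-delta T cell genes were matched, with 1 of them tested. Ratios, genes of like pattern, promoter matches and figures used Python 3.11.15, pandas 2.3.3 and matplotlib 3.10.9.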

Additional observations from a re-analysis of the deposited data

Results flagged for a closer look

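The 10 genes were looked at in each of the 4 treated groups. In 3 cases every treated library lay on the opposite side of vehicle in the 2 fractions. The share of all genes with such cases was not counted, so these cases are not shown to be rare. The difference between fractions was not tested, since their tables were normalized separately. Tcf7 with JQ1 differed from vehicle by 2.58 on the log2 scale in CD45-positive cells (means of 11.4 FPKM with JQ1 and 1.02 FPKM with vehicle) and by −1.46 in CD45-negative cells (2.24 FPKM with JQ1 and 7.94 FPKM with vehicle). Tcf7 in the 3-drug group differed from vehicle by 0.82 in CD45-positive cells (2.58 FPKM in the 3-drug group and 1.02 FPKM with vehicle) and by −1.19 in CD45-negative cells (2.935 FPKM in the 3-drug group and 7.94 FPKM with vehicle). Lck with JQ1 differed from vehicle by 1.96 in CD45-positive cells (20.4 FPKM with JQ1 and 3.62 FPKM with vehicle) and by −0.56 in CD45-negative cells (0.904 FPKM with JQ1 and 1.775 FPKM with vehicle). In CD45-negative cells the Lck values lay close, at up to 1.28 FPKM with JQ1 and down to 1.40 FPKM with vehicle. Neither Lck difference was called, nor that of Tcf7 in the CD45-positive 3-drug group. Groups of 2 or 3 libraries were too small to be tested for outlying samples.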

How the results depend on the processing

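Of the 60 member counts under other settings with all libraries kept, 53 stayed within 1.5 times the count of called genes given in the report. In comparisons without a called gene, a count that stayed at 0 was taken as unchanged. The 7 counts that moved all belonged to comparisons with a called gene, so the 53 do not measure how stable the calls were. For JQ1 against vehicle in CD45-positive cells, where 2 genes were called, the count was 1 with a pseudocount of 0.1, 0 without the filter on low values, 0 with 1 value per mouse code, 0 with relative depth as a covariate, and 0 to 5 when 1 library was left out. Tcf7 stayed between 2.17 and 3.33 (adjusted p 0.0198 to 0.827) and Ccr7 between 2.06 and 3.45 (0.023 to 0.827). In CD45-negative cells, where 1 gene was called in each, the count was 0 with 1 value per mouse code for JQ1 and for the 3-drug group, 0 to 1 for the 3-drug group when 1 library was left out, and for JQ1 with paclitaxel 2 with a pseudocount of 0.1 (Lck added) and 1 to 2 when 1 library was left out. Tcf7 kept its direction in all of these, at −1.78 to −1.30 for JQ1, −2.50 to −1.84 for JQ1 with paclitaxel and −1.42 to −1.09 for the 3-drug group. The number of all genes called moved more, for JQ1 from 0 to 121 against 108 in CD45-positive and from 21 to 1744 against 1592 in CD45-negative cells. One value per mouse code leaves fewer samples, and the filter changes how many genes are tested. The other causes were not tested. For single genes, 488 of 500 values kept direction and side of the threshold, and 2 changed sign: Lck for JQ1 with paclitaxel against vehicle in CD45-positive cells, 0.30 with the depth covariate, and Cd3e in the same comparison, 0.056 with median-ratio rescaling. Leaving out 1 library changed the sign of 26 differences, none of them called. Their ranges in CD45-positive cells were as follows. For JQ1 against vehicle they were Il7r −1.71 to 0.72. For JQ1 with anti-PD-L1 against vehicle they were Cd8a −0.58 to 0.18, Tcf7 −0.065 to 0.23 and Cd3e −0.44 to 0.11. For JQ1 with paclitaxel against vehicle they were Cd8a −0.54 to 0.21, Cd3g −0.92 to 0.10, Lck −1.10 to 0.35, Tcf7 −0.099 to 0.88, Cd3e −0.32 to 0.26 and Cd3d −0.32 to 0.16. For the 3-drug group against vehicle they were Cd8b1 −0.29 to 0.65, Il7r −2.33 to 0.76, Lck −0.11 to 1.53 and Cd3d −0.080 to 1.19. For all treated against vehicle they were Cd8a −0.19 to 0.57, Cd8b1 −0.60 to 0.35 and Cd3g −0.15 to 0.87. For paclitaxel added they were Il7r −1.40 to 0.14. For anti-PD-L1 added they were Il7r −0.43 to 1.11, Lck −0.78 to 0.094 and Cd3d −0.98 to 0.045. For the interaction they were Il7r −0.29 to 2.80. In CD45-negative cells the ranges follow. For JQ1 with anti-PD-L1 against vehicle they were Il7r −0.37 to 0.090, Lck −0.18 to 0.21 and Ccr7 −0.019 to 0.43. For the 3-drug group against vehicle they were Lck −0.033 to 0.71. No paired analysis was possible because no replicate number is shared between groups in the labels and each mouse code belongs to 1 group. With 2 libraries a group and unknown absolute depth, changes of low genes such as Cd8a may go undetected.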

Other observations

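The partners of 2 receptors were looked up after the values above had been seen. Il2rg, the chain with which Il7r forms the interleukin 7 receptor, had 57.8 to 142.0 FPKM in treated and 78.3 and 85.5 FPKM in vehicle CD45-positive libraries. Crlf2, the chain with which Il7r forms the receptor of the cytokine Tslp, had 15.9 to 41.2 FPKM in treated and 18.4 and 33.9 FPKM in vehicle libraries. Both were well above Il7r itself, and neither separated treated from vehicle libraries. The gene of interleukin 7 had 0.956 to 2.84 FPKM in treated and 2.16 and 2.78 FPKM in vehicle CD45-negative libraries, and 0.0473 to 0.866 FPKM in treated and 0.401 and 2.76 FPKM in vehicle CD45-positive libraries. Of the CCR7 ligands, Ccl19 did not exceed 0.0977 FPKM in the CD45-negative and 0.203 FPKM in the CD45-positive libraries, and Ccl21a did not exceed 1.77 and 1.92 FPKM.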
